A study of Mus musculus with 4 samples.

Results

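The shallow barcodes of the 12 h library were 255 of its 1120 barcodes, out of 3298 in the whole series. A barcode is the short tag shared by the RNA caught on 1 bead and is taken to stand for 1 cell. These members were chosen by 1 measured value, a total of under 1000 counts, and are called shallow here. The other 865 barcodes of the same library, with 1000 counts or more, are called deep. They had been proposed as a population rich in Malat1, and the data bear that out for only a few of them.

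The series profiled primary kidney cells that express Gli1, a marker of mesenchymal cells around vessels and tubules, by Drop-seq, which captures single cells in droplets with barcoded beads. The cells came from male mice aged 12 weeks. The series title calls them a conditionally immortalized line. All cultures spent 2 h without serum, and those labelled 6, 12 and 24 h were then kept in TGF-β at 1 ng/ml, which drives fibroblasts towards myofibroblasts, while the control labelled 0 h had none. There was no untreated culture at 6, 12 or 24 h. All cells were detached with an enzyme for 10 min. Each time had 1 library, so no value below has a replicate check, no test between times or sets was made, and ranges in parentheses are 95% intervals that cover counting error only.

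Barcodes of low depth in a droplet experiment can hold whole small cells, damaged cells, bare nuclei, RNA floating free in the suspension, or reads carried over from another barcode. Malat1 is a long non-coding RNA kept in the nucleus, where it lies in nuclear speckles, the bodies that store splicing factors. Meg3 and Neat1 are nuclear as well, whereas ribosomal protein mRNAs sit in the cytoplasm and mRNAs of secreted proteins are translated at the endoplasmic reticulum. The balance between these classes can therefore shift with which compartment's RNA a barcode caught, but it does not by itself show the compartment.

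Malat1 lies on chromosome 19, at chr19:5795690-5802672 on the minus strand in GRCm38, and is annotated there as a lincRNA of 6983 bases. Its mature end has no ordinary poly(A) tail and is closed by an A-rich stretch written in the genome. The stretch is shown because the beads capture RNA through oligo(dT), which pairs with runs of A. It lies within the 142 bases at chr19:5795958-5796099, read 5′ to 3′ from the GENCODE M21 transcript, with the longest run of A in the transcript in capitals. The bases shown run on past the A-rich stretch, and the annotated transcript has 268 more after them. The mature end is not marked.
Malat1: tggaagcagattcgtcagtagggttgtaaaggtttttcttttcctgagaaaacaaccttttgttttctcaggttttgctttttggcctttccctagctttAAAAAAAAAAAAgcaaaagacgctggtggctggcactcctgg
The run holds 12 A and begins at base 6674 of the transcript. It is the only run of 8 or more A in the whole transcript.

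The shallow barcodes held 123284 counts, 2.17% of the counts of the 12 h library but 22.8% of its barcodes. A shallow barcode had between 219 and 992 counts, with a median of 402, and between 201 and 745 detected genes, with a median of 329. Deep barcodes had between 1025 and 28493 counts, with a median of 5231. At the limit, the last 3 barcodes inside had 979, 983 and 992 counts with Malat1 at 0.715%, 0.407% and 1.01%. The first 3 outside had 1025, 1026 and 1030 counts with Malat1 at 0.488%, 1.36% and 0.194%. These few barcodes cannot show whether a step in Malat1 marks the limit. Summed over barcodes, Malat1 took 3.04% of counts from 500 to 1000 and 1.33% from 1000 to 2000. Without barcodes of 10% or more Malat1 the values were 1.20% and 1.14%. Every deposited barcode had at least 200 detected genes, and this floor can set what the shallowest barcodes hold, which was not tested.

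The shallow barcodes carried the markers of the cultured cells. Of 11 mesenchymal markers in the table, 9 had counts, summing to 7884 CPM (counts scaled to the same total for each set) against 8570 CPM in deep barcodes, a ratio of 0.920 (0.862 to 0.980). Fn1, the matrix glycoprotein fibronectin, had 323 counts, the collagen gene Col1a2 had 300 and Sparc, a collagen-binding matrix protein, had 243. The 2 at 0 were Dcn and Postn, which had 4 and 5 counts in all deep barcodes together. Gli1 and Lum, the other members of the list of 13, were not among the genes of the table, so neither had a value.

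Markers of other kidney cells were close to absent from the shallow barcodes. All 11 proximal tubule markers stood at 0. So did the 3 macrophage, 2 lymphocyte and 1 erythroid markers in the table, out of 7, 5 and 5 on the lists. Slc12a1, which takes up salt in the loop of Henle, had 1 count, and Egfl7, an endothelial gene, had 2. The podocyte list had 14 counts, all from Synpo, an actin-associated gene that had 607 in deep barcodes. The Schwann and neural list had 5 counts. No barcode was shared between libraries. The content of the 0 h library did not match mesenchymal cells, with proximal tubule markers at 1.90% of the counts of its 179 shallow barcodes, and it enters the results below only for the levels of Malat1, ribosomal protein mRNAs and long genes.

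Malat1 was high in a handful of shallow barcodes and ordinary in the rest. The median shallow barcode had 0.930% of its counts in Malat1, against 0.836% in the median deep barcode. In 35 shallow barcodes Malat1 had no count. Only 9 of 255, or 3.53%, reached 10%, a limit set after the values were seen. The exact binomial range of 1.63 to 6.59 takes the barcodes of 1 library as separate draws and does not cover other cultures. These 9 held 1636 of the 3147 Malat1 counts of all shallow barcodes, which is 52.0%. A further 7 lay between 5% and 10%.

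The 9 barcodes had Malat1 at 13.1%, 22.0%, 24.1%, 24.2%, 26.8%, 26.9%, 34.3%, 35.5% and 40.4% of their counts. They were spread over depths from 328 to 965 counts. Of the 865 deep barcodes, 2 reached 10%, at 15.8% and 21.6%, and both were just above the limit, with 1057 and 1121 counts. No barcode above 1121 counts reached 10%.

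**Figure D1:**
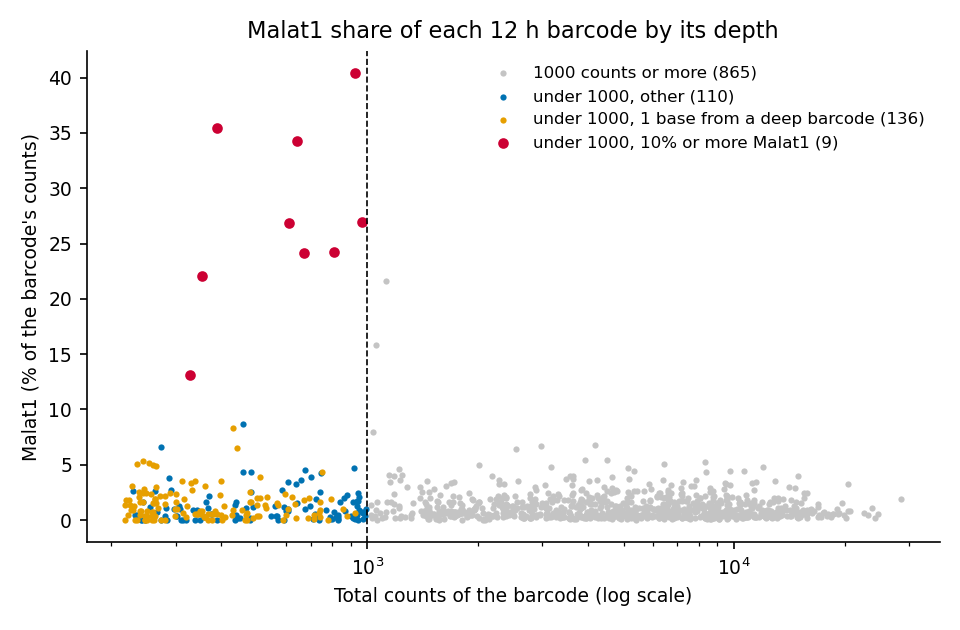
Each point is 1 barcode of the 12 h library, with its total counts on a log axis and Malat1 as a percent of those counts; the dashed line is the limit of 1000 counts and colours give the kind of barcode. The 9 barcodes with 10% or more Malat1 lie between 13.1% and 40.4%, and the other shallow barcodes reach at most 8.71%.

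A majority of the shallow barcodes had a near-identical partner among the deep ones. The tag is 12 bases long, and 136 of 255 shallow tags, or 53.3%, differed from the tag of a deep barcode by exactly 1 base. The last letter was N in 32 of the 255 shallow and 202 of the 865 deep tags, and N was compared as any other letter. Of the deep barcodes, 121 of 865, or 14.0%, had any neighbour 1 base away, and 113 of these lay beside a shallow tag. That share is thus largely the same pairs counted from the deep side. Of the library's 141 pairs 1 base apart, 137 joined a shallow and a deep barcode. Of these 137 pairs, 94 differed at position 6 of the tag. In 91 of those 94 the deep tag had A and the shallow tag had C there. As many as 6 shallow barcodes lay beside 1 deep barcode.

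**Figure D2:**
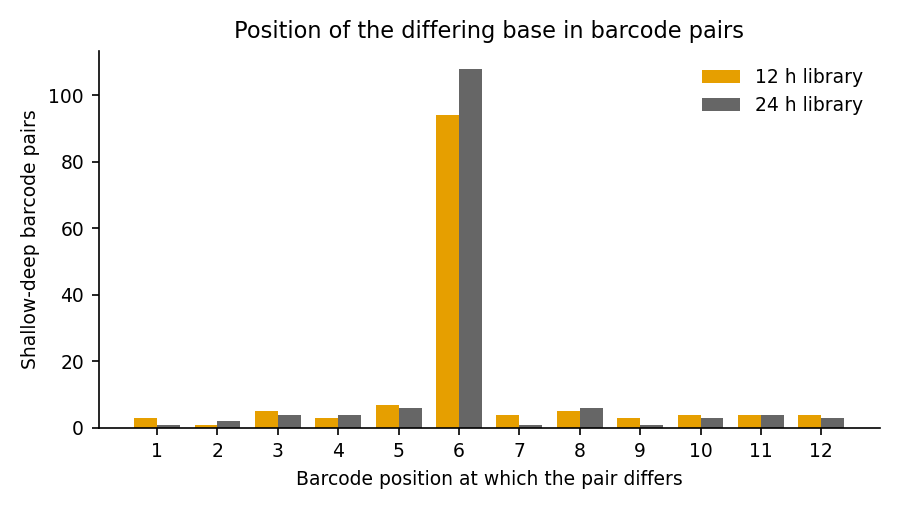
Bars give the number of pairs of 1 shallow and 1 deep barcode that differ by a single base, by the position of that base in the tag, for the 12 h and 24 h libraries. Position 6 holds 94 of 137 pairs at 12 h and 108 of 143 at 24 h.

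The deep partners were among the deeper barcodes of the library. Each shallow barcode had between 1.16% and 8.53% of the partner's counts, with a median of 4.07%, and the partners had 3188 to 28493 counts with a median of 11882.5. That range is largely set by the limit of 1000 counts and the floor of 200 genes on the shallow side. By correlation of log expression over 2000 genes, the partner was the most similar of the 865 deep barcodes for 9 of the 136. It ranked within the first 9 for 43 and within the first 86 for 100, with a median rank of 23.5. Whether the pairs are 1 cell was not tested.

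None of the 9 barcodes with 10% or more Malat1 lay 1 base from a deep barcode. They made up 7.56% of the 119 shallow barcodes with no deep tag 1 base away. The shallow barcodes thus fell into 3 kinds that do not overlap: 136 beside a deep tag, 9 with 10% or more Malat1, and 110 others. The kinds had median depths of 341, 644 and 569.5 counts.

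Nuclear RNAs were higher in the pooled shallow barcodes, and the difference came largely from the 9. Malat1 stood at 25526 CPM in shallow and 10950 CPM in deep barcodes, a ratio of 2.33 (2.25 to 2.42). Without the 9 the ratio was 1.17 (1.11 to 1.23). Because the 9 were picked on Malat1, leaving them out had to lower this ratio. The other nuclear long non-coding RNAs summed to 3196 against 2055 CPM, a ratio of 1.56 (1.40 to 1.72), and without the 9 to a ratio of 1.07 (0.944 to 1.21). Among them Meg3, an imprinted transcript, had 291 counts and a ratio of 1.73 (1.53 to 1.94), which was 1.12 without the 9. Neat1, the scaffold of nuclear paraspeckles, had 73 counts and a ratio of 1.24 (0.97 to 1.56), which was 0.96 without them.

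Messenger RNAs for splicing and speckle proteins followed the same pattern more weakly. The list summed to 8282 against 6760 CPM, a ratio of 1.23 (1.15 to 1.30), and to 1.09 (1.02 to 1.17) without the 9. On the scale of log2(CPM + 10), 11 of its 12 members at 200 CPM or more lay above 0, with a median log2 ratio of 0.28. Over all 1083 genes at that level the median was -0.01, and 528 lay above 0. Srsf11, which encodes a splicing factor, had a ratio of 1.57 (1.24 to 1.96), Luc7l3 1.49 (1.24 to 1.78) and Rbm25 1.36 (1.17 to 1.57). Ddx5, an RNA helicase of the same list, stood at 1.00 (0.81 to 1.22). Without the 9 the list's median log2 ratio was 0.14. Genes for large chromatin regulators summed to a ratio of 1.04 (0.952 to 1.12).

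Ribosomal protein mRNAs were almost the same share of shallow and deep barcodes. They made up 10.8% of shallow counts (10.6 to 10.98) and 11.03% of deep counts, a ratio of 0.980 (0.963 to 0.997), and 1.02 (0.998 to 1.03) without the 9. Of 78 members at 200 CPM or more, 32 lay above a log2 ratio of 0 and 46 below, with a median of -0.03. Of all 1083 genes at that level, 528 lay above 0 and 555 below. No member passed 1.5-fold. Rps28 was at the upper end with a ratio of 1.38 (1.07 to 1.75) and Rpl29 at the lower end with 0.69 (0.46 to 1.00). Translation factors, which work with the ribosome, had a summed ratio of 1.02 (0.983 to 1.06).

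Mitochondrial RNA divided by type. The 2 mitochondrial ribosomal RNAs were higher in shallow barcodes, with mt-Rnr2 at 18121 against 13257 CPM, a ratio of 1.37 (1.31 to 1.43), and mt-Rnr1 at 2385 against 1670 CPM, a ratio of 1.43 (1.27 to 1.60). The mitochondrial protein-coding genes summed to a ratio of 0.927 (0.866 to 0.991). All 6 at 200 CPM or more lay below a log2 ratio of 0, where 555 of all 1083 genes did. Among the 6, mt-Cytb, of complex III, had a ratio of 0.96 (0.85 to 1.08) and mt-Nd4, of complex I, 0.87 (0.73 to 1.02). All mitochondrial genes together had a ratio of 1.22 (1.18 to 1.27), and 1.22 (1.18 to 1.26) without the 9. No shallow barcode exceeded 4.99% mitochondrial counts, and no deposited barcode of the library reached 5%, so barcodes richer in mitochondrial RNA are not part of the comparison.

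Nuclear-encoded genes of oxidative phosphorylation were slightly lower. Their summed ratio was 0.935 (0.894 to 0.977), and 0.965 (0.923 to 1.01) without the 9. Of 38 at 200 CPM or more, 26 lay below 0, with a median log2 ratio of -0.10, where 555 of all 1083 genes lay below 0. At 1.5-fold lower stood 3 of the 38, namely Cox6a1, Cox5b and Ndufs6, against 22 of the 1083, or 2.03%. Cox7b went the other way with a ratio of 1.46 (1.20 to 1.77). Cytosolic chaperones were somewhat higher as a sum, with a ratio of 1.12 (1.07 to 1.16). Hsp90ab1, a heat shock protein that alone gave 1131 of the list's 2321 counts, had a ratio of 1.19 (1.12 to 1.26).

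Messenger RNAs of secreted proteins were lower in shallow barcodes, by a small amount that many genes shared. The combined list stood at 39113 against 42806 CPM, a ratio of 0.914 (0.888 to 0.940), and 0.925 (0.899 to 0.952) without the 9. Of 39 members at 200 CPM or more, 34 lay below a log2 ratio of 0 and 5 above, with a median of -0.14. Of all 1083 genes at that level, 555 lay below 0. No member passed 1.5-fold. Matrix glycoproteins had a ratio of 0.895 (0.852 to 0.940), with Thbs1, which encodes thrombospondin 1, at 0.71 (0.55 to 0.90) and Fn1 at 0.91 (0.82 to 1.02). Secreted enzymes and inhibitors had 0.924 (0.878 to 0.972), with Timp3, an inhibitor of metalloproteases and the most abundant member, at 0.98 (0.91 to 1.05). Growth factors and chemokines had 0.910 (0.856 to 0.966), with the growth factor Hbegf at 0.70 (0.51 to 0.95). Collagens had 0.950 (0.872 to 1.03), with Col1a2 at 0.91 (0.81 to 1.02).

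Chaperones of the endoplasmic reticulum, where these proteins fold, were lower to a similar or larger extent. The list had a ratio of 0.843 (0.794 to 0.894), 14 of its 15 members at 200 CPM or more lay below 0, and the median log2 ratio was -0.23. Of all 1083 genes at that level, 555 lay below 0. Serpinh1, the chaperone of collagen, had 26 counts and a ratio of 0.65 (0.43 to 0.96). Hspa5, the main Hsp70 of the compartment, had 115 counts and 0.79 (0.65 to 0.96), and Dnajc3 was the 1 member above 0, at 1.12 (0.80 to 1.54). TGF-β target genes had a summed ratio of 0.873 (0.793 to 0.959), with Ctgf, a matricellular protein gene, at 0.78 (0.61 to 1.00). All 4 targets at 200 CPM or more, of 19 in the table, lay below 0.

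Genes of G2 and M phase were higher in the shallow barcodes as a sum, at 1939 against 1419 CPM, a ratio of 1.37 (1.20 to 1.55) from 239 counts over 39 genes. No member reached 200 CPM. Tpx2, a spindle assembly factor, had 15 counts and a ratio of 2.35 (1.30 to 3.94), and Mki67, a proliferation marker, had 13 counts and 1.84 (0.97 to 3.19). S phase genes, with 76 counts, had a ratio of 1.10 (0.861 to 1.38).

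**Figure D3:**
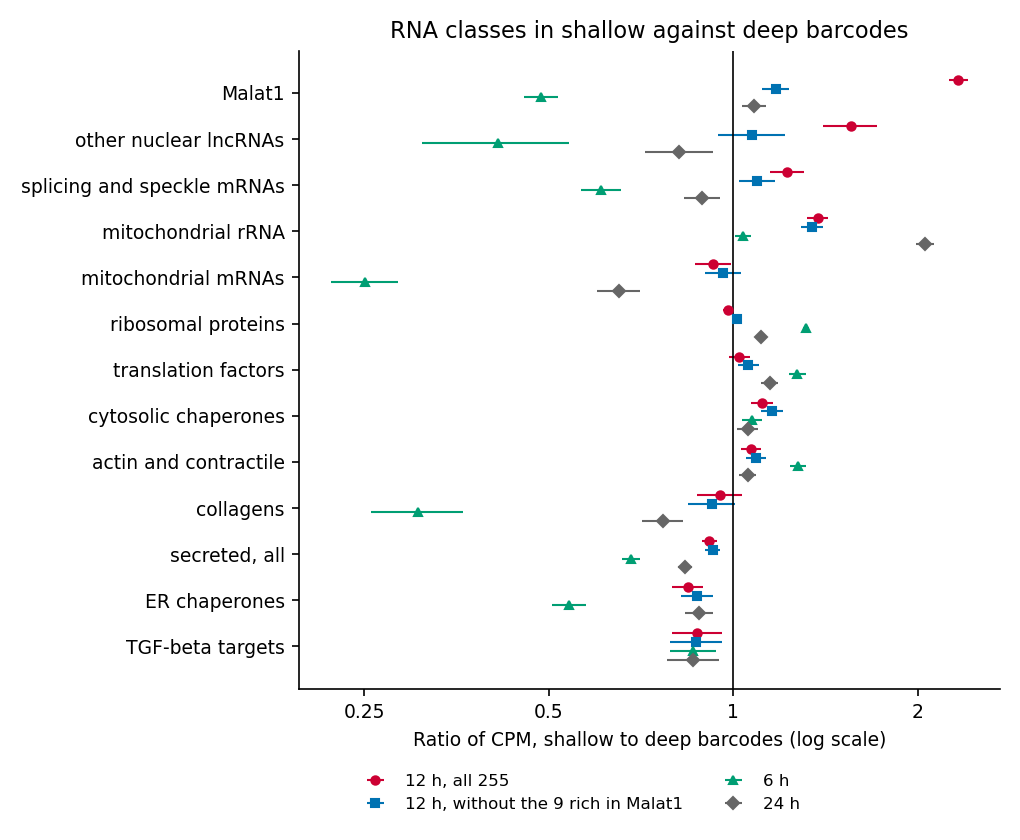
Points give the ratio of summed CPM in shallow to deep barcodes for each RNA class on a log axis, and bars are 95% intervals for counting error; colours separate all 255 shallow barcodes at 12 h, the same without the 9 that have 10% or more Malat1, and the 6 h and 24 h libraries. At 12 h Malat1 moves from 2.33 to 1.17 without the 9, while mitochondrial rRNA and secreted-protein mRNAs hardly move.

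Gene by gene, the pooled shallow profile was close to the deep one. Across 1083 genes at 200 CPM or more in either set, Pearson's r of log expression was 0.964, over genes that are not independent replicates, and 78.4% of genes lay within 1.25-fold. The genes at least 2-fold higher on the scale of log2(CPM + 10) were 2, or 0.185% of those compared, namely Malat1 and Cflar. Those at least 2-fold lower were 1, or 0.0923%, namely Arl6ip1. At 1.5-fold the counts were 21 higher (1.94%) and 22 lower (2.03%).

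Cflar, an inhibitor of death receptor apoptosis, had 29 counts in shallow barcodes, at 235 against 85.5 CPM, a ratio of 2.75 (1.82 to 4.00). It kept a ratio of 2.68 without the 9, and 5 of its 29 counts, 17.2%, came from 1 barcode. Among the others of the 15 highest, Malat1 and Meg3 are described above. Sfrs18, a splicing factor gene, had 92 counts and a ratio of 1.95 (1.57 to 2.41), which was 1.47 without the 9. Rbm26 and Zc3h14, both RNA-binding proteins, had 26 counts each and ratios of 1.97 (1.28 to 2.92) and 1.97 (1.27 to 2.91). Ythdc1, a nuclear reader of methylated RNA, had 45 counts and 1.69 (1.23 to 2.28). The remaining members were Dync1li2, Utp14a, Ccdc34, Ankrd12, Palld, Lpgat1, Axl and Ddx46, with ratios between 1.59 and 1.91. All 15 stayed above 1 without the 9, and the intervals of 2 then included 1.

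The 15 lowest rested on 12 to 47 counts each, with folds of 1.56 to 2.26. Arl6ip1, a protein that shapes the endoplasmic reticulum, had 12 counts, at 97.3 against 220 CPM, a ratio of 0.44 (0.23 to 0.78). Galnt1, a glycosyltransferase of the Golgi, stood at 0.56 (0.33 to 0.90), Copb1, a subunit of the COPI coat, at 0.62 (0.37 to 0.98) and the Golgi protein gene Acbd3 at 0.61 (0.36 to 0.97). Ddx3x, an RNA helicase, stood at 0.53 (0.31 to 0.86) and Mef2a, a transcription factor, at 0.53 (0.29 to 0.90). Glipr1, Cox6a1, Bud31, Tsc22d1, Gnb2, Hn1, Serinc1, Romo1 and Maea made up the rest. They are the extremes of 1083 genes and rest on few counts.

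**Figure D4:**
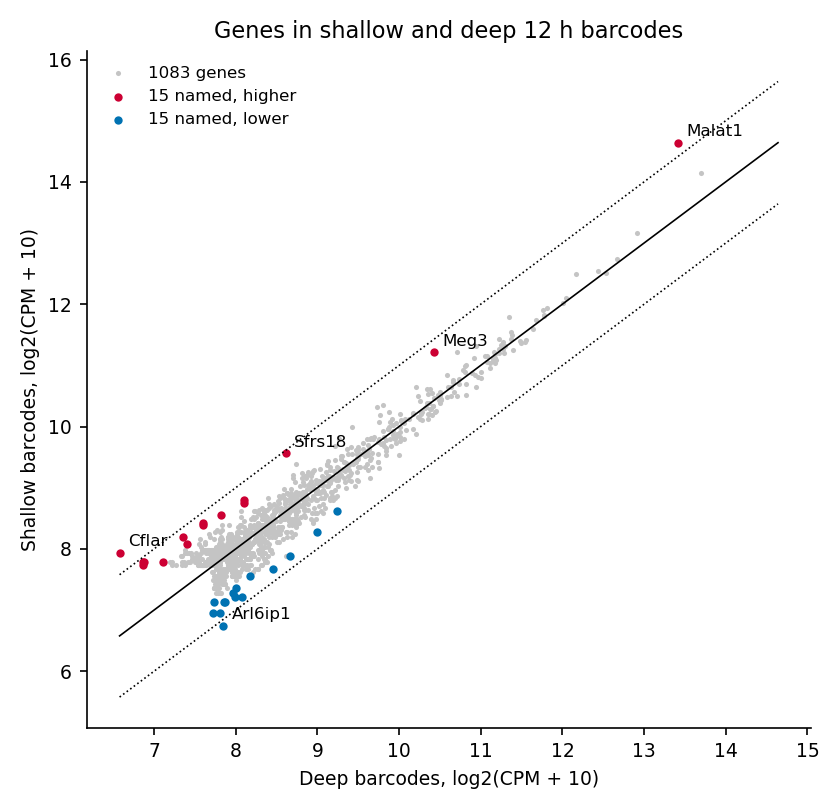
Each point is 1 of 1083 genes at 200 CPM or more in either set, with log2(CPM + 10) in deep barcodes across and in shallow barcodes up; the solid line is equality and the dotted lines are 2-fold. The 30 named genes are coloured, and Malat1, Cflar and Arl6ip1 lie beyond the 2-fold lines.

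The 3 kinds of shallow barcode differed in these classes. The 136 beside a deep tag were near the deep profile in most classes. Their ribosomal protein ratio to deep barcodes was 0.997 (0.972 to 1.02), their secreted-protein ratio 1.01 (0.965 to 1.05) and their endoplasmic reticulum chaperone ratio 1.01 (0.925 to 1.09). Malat1 stood at 1.23 (1.14 to 1.33) and mitochondrial rRNA at 1.14 (1.07 to 1.22). Genes of G2 and M phase stood at 1.30 (1.06 to 1.59), cytosolic chaperones at 1.09 (1.03 to 1.17) and the S100, galectin and annexin list, of calcium-binding and membrane-associated proteins, at 1.09 (1.03 to 1.16). Nuclear-encoded oxidative phosphorylation genes stood at 0.920 (0.860 to 0.984), and in the 110 others at 1.00 (0.945 to 1.06). The lower secreted-protein and chaperone values of the whole set were thus not seen in the kind that made up a majority of its barcodes.

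The 110 others held the lower secreted-protein and chaperone values. Their secreted-protein ratio to deep barcodes was 0.858 (0.823 to 0.893), their endoplasmic reticulum chaperone ratio 0.764 (0.700 to 0.832) and their TGF-β target ratio 0.785 (0.681 to 0.900). Mitochondrial rRNA stood at 1.52 (1.44 to 1.60) and mitochondrial protein-coding genes at 0.865 (0.784 to 0.953). Cytosolic chaperones stood at 1.21 (1.15 to 1.28), actin and contractile genes at 1.15 (1.09 to 1.21) and G2 and M phase genes at 1.52 (1.28 to 1.80). Malat1 stood at 1.12 (1.05 to 1.21), and ribosomal protein genes at 1.03 (1.01 to 1.05).

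Single barcodes among the 110 varied more than in the other large kinds. Ribosomal protein mRNAs ranged from 1.51% to 32.7% of the counts outside Malat1, with a median of 11.4%, whereas the 136 beside a deep tag ranged from 3.70% to 17.2% with a median of 10.95%. Of the 110, 10 lay under 6% and 12 above 16%. Of the 136, 1 and 2 did, and of the 865 deep barcodes 6 and 5 did. Both limits were set after the values were seen.

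The ends of that range differed in classes that did not define them. The 12 at the high end had Malat1 at 0.305% of counts (0.184 to 0.476) and secreted-protein mRNAs at 1.99% (1.66 to 2.37), against 1.20% (1.11 to 1.29) and 3.79% (3.63 to 3.96) in the 88 between the limits. Their translation factors stood at 3.39% (2.95 to 3.87) against 2.11% (1.99 to 2.24), and their mitochondrial rRNA at 3.29% (2.86 to 3.77) against 2.09% (1.97 to 2.22). The 10 at the low end had speckle and splicing mRNAs at 1.92% (1.57 to 2.31) against 0.655% (0.588 to 0.729), Malat1 at 2.56% (2.17 to 3.01) and secreted-protein mRNAs at 4.39% (3.87 to 4.96). Across these 10, Malat1 ranged from 0% to 8.71% of a barcode's counts, a spread that the interval does not cover. Their mitochondrial rRNA, at 2.71% (2.30 to 3.17), was above the middle as well. Mitochondrial protein-coding genes stood at 1.22% (0.948 to 1.54) at the low end and 0.606% (0.541 to 0.676) between the limits. Because shares sum to a whole, a class that takes more leaves less to the others.

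The 9 barcodes with 10% or more Malat1 were different from the rest outside Malat1 too. All values for them below are shares of the 4062 counts left when Malat1 is removed, and they are descriptions, since the 9 were picked on Malat1 after its values were seen. Ribosomal protein mRNAs made up 1.65%, 2.36%, 3.25%, 3.26%, 4.56%, 4.70%, 5.09%, 5.43% and 8.37% of them. The median over the other 246 shallow barcodes was 11.2%, and over deep barcodes 10.998%. All 9 lay below both medians, and 8 of the 9 lay under 6%. Summed, the ratio to the other shallow barcodes was 0.347 (0.295 to 0.406).

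**Figure D5:**
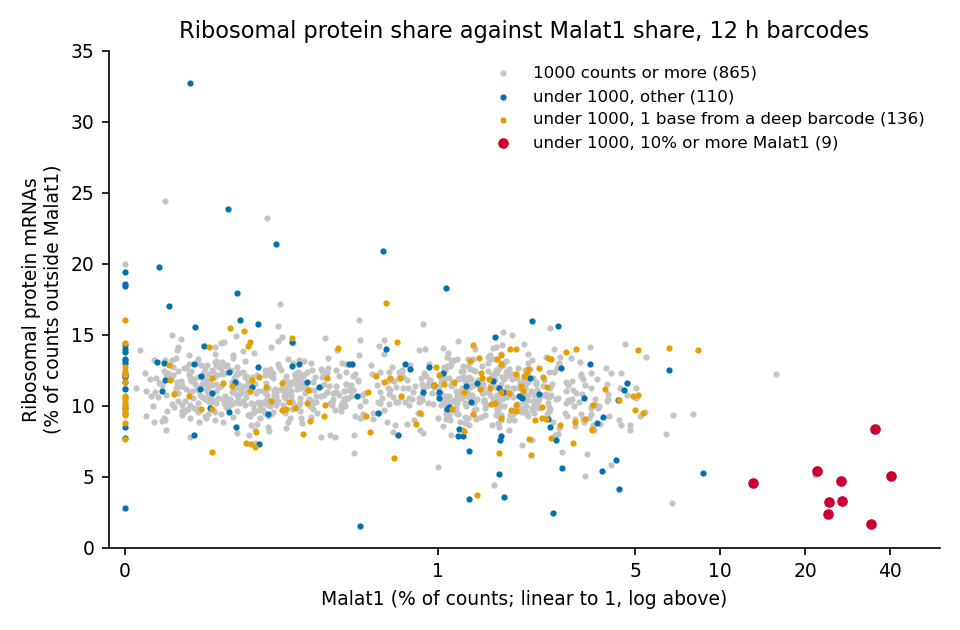
Each point is 1 barcode of the 12 h library, with Malat1 as a percent of its counts across (linear to 1, log above) and ribosomal protein mRNAs as a percent of the counts outside Malat1 up; colours give the kind of barcode. The 9 with 10% or more Malat1 sit between 1.65% and 8.37%, and the 110 others spread from 1.51% to 32.7%.

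Other nuclear RNAs were high in the same 9 barcodes. Meg3 had 111 counts in them, found in 9 of 9, and was 17.6-fold higher (13.8 to 22.4) than in the other shallow barcodes. Neat1 had 19 counts in 7 of 9 and was 10.1-fold higher (5.63 to 17.2). The list of splicing and speckle mRNAs was 5.0-fold higher (4.18 to 5.94), and it lay between 2.60% and 4.71% in each of the 9, against a median of 0.660% in the other shallow barcodes. Rbm25 had 44 counts in 9 of 9 and was 8.27-fold higher (5.77 to 11.6), and Luc7l3 had 37 counts in 9 of 9 and was 12.2-fold higher (8.04 to 18.0). Arglu1, whose product acts in splicing, had 12 counts and was 19.1-fold higher (8.37 to 41.8). Nktr and Sfrs18, with products rich in arginine and serine, had 13 and 26 counts and ratios of 14.3 (6.74 to 28.8) and 11.3 (6.86 to 18.0).

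Several cytoplasmic classes were lower in the 9, and others were not distinguishable or higher. Translation factors stood at 0.368 (0.251 to 0.521) of their level in the other shallow barcodes, cytosolic chaperones at 0.273 (0.171 to 0.415), endoplasmic reticulum chaperones at 0.330 (0.175 to 0.566) and the S100, galectin and annexin list at 0.326 (0.218 to 0.469). Nuclear-encoded oxidative phosphorylation genes stood at 0.441 (0.299 to 0.628) and proteasome genes at 0.495 (0.316 to 0.740). The intervals of actin and contractile genes, at 0.831 (0.656 to 1.04), of vimentin, lamins and tubulins, at 0.652 (0.378 to 1.05), and of glycolysis genes, at 0.553 (0.201 to 1.22), spanned 1. Immediate early genes, which respond within minutes to a stimulus, stood at 2.65 (1.38 to 4.69) from 13 counts, and TGF-β targets at 1.48 (0.919 to 2.27). Eef1a1, the elongation factor, had 2 counts, and Tpt1 had none, where the other shallow barcodes had 325 and 214. Secreted-protein mRNAs as a whole stood at 1.01 (0.862 to 1.18), and collagens at 2.30 (1.63 to 3.16), with Col5a2 at 12 counts and 5.04-fold higher (2.48 to 9.39). Mitochondrial rRNA was 2.00-fold higher (1.69 to 2.34), while mitochondrial protein-coding genes, with 8 counts, stood at 0.267 (0.115 to 0.528).

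Genes with a long genomic span took more of the counts of the 9. Genes of 100 kb or more in GENCODE M21 held 15.0% of their counts outside Malat1 (13.9 to 16.2), against 8.05% (7.89 to 8.20) in the other shallow barcodes and 8.26% (8.23 to 8.28) in deep ones. In the 179 shallow barcodes of the library labelled 0 h the value was 17.6% (17.3 to 17.9). Those 0 h barcodes also had Malat1 at 32.0% of counts and ribosomal protein mRNAs at 0.528% of the rest. The 9 did not share its tubule content, as all proximal tubule markers stood at 0 in them, which allows at most 739 CPM outside Malat1, and 5 mesenchymal markers had counts, 17 from Fn1 and 13 from Col1a2. Each of the 9 had between 1 and 8 mesenchymal marker counts.

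The 2 deep barcodes with 10% or more Malat1 were not alike. The one at 21.6% had ribosomal protein mRNAs at 5.12% of the rest, within the range of the 9, and the one at 15.8% had 12.2%, outside it. The 7 shallow barcodes between 5% and 10% Malat1 had ribosomal protein shares from 5.25% to 14.0%, and 5 of the 7 lay beside a deep tag. High Malat1 and low ribosomal protein share therefore went together only in part.

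Within the shallow set the summed Malat1 share rose with depth, and without the 9 it fell. Summed over barcodes, Malat1 took 1.49% of counts under 300, 2.09% from 300 to 500 and 3.04% from 500 to 1000, then 1.33% from 1000 to 2000 and 1.01% at 8000 or more. Without barcodes of 10% or more Malat1 the shallow values were 1.49%, 1.34% and 1.20%. Mitochondrial RNA stood at 2.59%, 2.75% and 2.80% in the 3 shallow ranges and at 2.14% at 8000 or more. Ribosomal protein mRNAs lay between 10.5% and 11.1% in every range.

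At an equal depth the shallow and deep barcodes were about as diverse. Thinned to 250 counts, which left out 35 shallow and no deep barcodes, the median number of genes was 220 in shallow and 223 in deep barcodes, against 329 and 2485 before thinning. The share of barcodes with a Malat1 count was then 76.4% and 80.1%. The 9 barcodes with 10% or more Malat1 had a median of 160 genes at that depth, fewer than the 218 of the 110 others. Malat1's own counts fill part of the 250 in them.

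Shallow barcodes of the other treated libraries differed in their make-up. At 6 h, 578 of 658 barcodes were shallow, and 10 of them, 1.73%, lay 1 base from a deep barcode. At 24 h, 395 of 1328 were shallow, and 143 of them, 36.2%, lay 1 base from a deep one, with position 6 of the tag again the most frequent. Barcodes with 10% or more Malat1 numbered 3 of 578 at 6 h, at 18.5%, 30.9% and 44.3%. At 24 h there were 0 of 395, which allows a share of up to 0.759% if barcodes are taken as separate draws. The 3 at 6 h held 51.9% of the Malat1 counts of the shallow barcodes of that time. Their ribosomal protein shares of the rest were 15.1%, 10.1% and 5.11%, in the same order. Of the 80 deep barcodes at 6 h, 1 reached 10% Malat1, at 31.3%.

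The classes also moved otherwise at those times. Malat1 had a shallow-to-deep ratio of 0.486 (0.455 to 0.518) at 6 h and 1.08 (1.03 to 1.13) at 24 h. Ribosomal protein mRNAs had 1.31 (1.30 to 1.33) at 6 h and 1.11 (1.10 to 1.13) at 24 h, and secreted-protein mRNAs 0.681 (0.658 to 0.706) and 0.834 (0.812 to 0.857). Mitochondrial rRNA had 1.04 (1.01 to 1.07) and 2.06 (1.99 to 2.13), and mitochondrial protein-coding genes 0.250 (0.221 to 0.283) and 0.650 (0.600 to 0.703). Secreted-protein mRNAs, endoplasmic reticulum chaperones and mitochondrial protein-coding genes were thus below 1 at all 3 times, and least so at 12 h for secreted-protein and mitochondrial mRNAs. With 1 library a time, the time and the library cannot be told apart.

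Gene by gene, the 6 h shallow barcodes were farther from their deep ones than those at 12 h. Of 1029 genes at 200 CPM or more at 6 h, 10 were at least 2-fold higher (0.972%) and 81 at least 2-fold lower (7.87%). Of 994 at 24 h, 3 were higher (0.302%) and 2 lower (0.201%). Cflar, the leading gene at 12 h after Malat1, had ratios of 1.09 at 6 h and 0.87 at 24 h, and Arl6ip1 had 1.21 and 1.08. Meg3 had 0.32 and 0.78.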

How the data were processed

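Whole-number counts for 17391 genes in 3298 barcodes were deposited by the authors in 1 table, whose barcode names carry the time of each of the 4 libraries. The submitters' processing notes name STAR 2.5.3a as aligner and mm10 as build. Read counting, strand, barcode filtering and UMI collapsing were steps not given in the sources used here. Of all genes, 375 had no count. No doublets were called and no barcodes were merged or removed.

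Counts were summed over the barcodes of each set and scaled to CPM. Ratios are of CPM, with exact conditional binomial 95% intervals, and shares have exact binomial ones. Where a set has no count, 3 counts were taken as the bound. Log2 ratios add a pseudocount of 10 CPM, which understates differences of low genes, and cover genes at 200 CPM or more in either set. Named genes are the 15 highest and 15 lowest of these, besides Malat1, Neat1, Meg3 and members of the 25 lists where a list is described. Genes of mitochondria and ribosomal proteins, predicted or unnamed genes and any with over 25% of its shallow counts in 1 barcode were not eligible. The kinds of barcode, and genes singled out in the 9 barcodes that this rule does not reach, were chosen after the values were seen. The barcodes, lists and markers were chosen with earlier results of these data known. Gene spans were matched by symbol to GENCODE M21 for 16337 genes, and for 1044 of the 1083 compared.

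Alternatives numbered 19. Among them were TMM (edgeR 4.0.16) and DESeq2 1.42.0 size factors, and 3 barcode selections were added after seeing the data. The scripts were tested on simulated data. R 4.3.3 and Python 3.11.15 were used, with scipy 1.17.1, numpy 2.4.6, pandas 2.3.3 and matplotlib 3.10.9.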

Additional observations from a re-analysis of the deposited data

Results flagged for a closer look

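Several classes differed between shallow and deep barcodes in one direction at 12 h and in the other at another time, with 95% counting intervals on opposite sides of 1. With 1 library a time, these differences between times were not tested. Malat1 had a ratio of 2.33 at 12 h and 0.486 at 6 h. The other nuclear long non-coding RNAs had 1.56 at 12 h, 0.412 at 6 h and 0.817 at 24 h. Mitochondrial RNA had 1.22 at 12 h and 0.913 at 6 h as a sum, but neither of its types changed direction. Mitochondrial rRNA had 1.37 at 12 h and 1.04 at 6 h, and mitochondrial protein-coding genes had 0.927 and 0.250. Ribosomal protein mRNAs had 0.980 at 12 h, 1.31 at 6 h and 1.11 at 24 h. Splicing and speckle mRNAs had 1.23 at 12 h, 0.609 at 6 h and 0.890 at 24 h. Nuclear-encoded oxidative phosphorylation genes had 0.935 at 12 h and 1.08 at 6 h. Genes of G2 and M phase had 1.37 at 12 h and 0.677 at 6 h. Without the shallow barcodes of 10% or more Malat1, some of the 12 h intervals included 1. The other nuclear long non-coding RNAs then had 1.07 (0.944 to 1.21) and ribosomal protein mRNAs 1.02 (0.998 to 1.03). Nuclear-encoded oxidative phosphorylation genes had 0.965 (0.923 to 1.01). Malat1, mitochondrial RNA, splicing and speckle mRNAs and G2 and M phase genes stayed above 1, at 1.17, 1.22, 1.09 and 1.42.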

How the results depend on the processing

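Direction was kept under every alternative by the Malat1, other nuclear lncRNA, mitochondrial and secreted-protein ratios, and their sizes moved with which barcodes were compared. The ribosomal protein ratio lies so near 1 that it crossed to 1.01 without barcodes of 10% or more Malat1, 1.03 over the 110 others alone and 1.00 with totals that leave out Malat1, mitochondrial and ribosomal protein counts, and was 0.960 under TMM. The Malat1 ratio was 1.67 with a limit of 500 counts, 1.65 with 2000, 1.92 against deep barcodes of 1000 to 2000 counts, 2.44 with at least 300 genes and 1.89 with each barcode weighed equally. It was 3.16 without any barcodes 1 base apart, 3.18 without the shallow ones beside a deep tag, 1.18 without barcodes of 10% or more Malat1 and 1.12 over the 110 others. In the same order, except 300 genes, the other nuclear lncRNA ratio was 1.28, 1.30, 1.38, 1.38, 1.85, 1.89, 1.08 and 1.03. The last 2 lay near 1, and over the 110 others the interval of 0.860 to 1.22 included it. The mitochondrial ratio was 1.17 with a limit of 2000, 1.08 against the shallowest deep barcodes, 1.15 with equal weights, 1.28 and 1.30 without neighbours and 1.30 over the 110 others. The secreted-protein ratio was 0.948 with a limit of 500, 0.985 with 2000, 0.839 and 0.843 without neighbours and 0.858 over the 110 others.

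Genes at least 2-fold higher and lower, 2 and 1 as reported, numbered 12 and 11 with a limit of 500, 0 and 0 with 2000, 5 and 4 against deep barcodes of 1000 to 2000 counts, 15 and 12 without barcodes 1 base apart, 13 and 13 without shallow ones beside a deep tag, and 13 and 13 over the 110 others. They numbered 7 and 11 at a floor of 100 CPM, 1 and 0 at 400 CPM, 185 and 713 with no floor, and 21 and 22 at 1.5-fold. Higher genes were 4 with at least 300 genes and 1 without the barcodes of 10% or more Malat1. Lower genes were 2 with equal weights and 0 with a pseudocount of 50. Secreted enzymes and inhibitors turned to 1.02 with a limit of 2000, nuclear oxidative phosphorylation genes to 1.00 over the 110 others and Dync1li2 to 0.716 with a limit of 500. The cause was not tested. The selections by Malat1 and by neighbours of deep tags, except leaving out all neighbours, were chosen after seeing the data.

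No paired analysis was possible because each time has 1 library and no replicate numbers. The shallow set holds 123284 counts, so a gene without a count could stand at up to 24.3 CPM. Over the 9 barcodes that bound is 739 CPM outside Malat1. Most named genes rest on 12 to 92 counts apart from Malat1 and Meg3, and counting intervals leave out variation between cells, cultures and libraries.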
